A study of Homo sapiens with 3 samples.

Results

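Open chromatin was examined at 8 genes that build or limit the vesicle route across endothelium: CAV1, CAV2, CAVIN1, CAVIN2, CAVIN3, EHD2, PLVAP and MFSD2A. The genes were chosen by symbol, for their known role, but with earlier results of these data known, as were the lists compared with them below. The choice was therefore not blind to these data. All 8 were among the 20037 protein-coding genes of the RefSeq table of assembly GRCh38.p14 on the 24 chromosomes of the peak list. The cells were hCMEC/D3, a human line immortalized from the endothelium of small brain vessels and grown to confluence on rat tail collagen. One ATAC-seq library (replicate 2 by its title) was analysed, in which the Tn5 transposase cuts and tags accessible DNA. There was no second group, treatment or cell type, so every value below describes 1 library of 1 line, with no replicate and no test between groups. The 2 RNA libraries of the series list transcripts by identifiers that the tables used here do not pair with genes, and no RNA level of these genes is given.

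Caveolae are flask-shaped pits of the plasma membrane that carry cargo across endothelial cells by transcytosis. Caveolins form the core of the coat, cavins assemble around it from the cytosol, and an EHD ATPase holds the neck at the membrane. Vessels of the mature blood-brain barrier are known for few such vesicles and for lacking the diaphragms that PLVAP forms, and MFSD2A, a lipid transporter of brain endothelium, is known to restrain caveolar transcytosis there. The list therefore holds genes of both kinds, those that make vesicles and 1 that limits them.

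All 8 genes had at least 1 peak at a gene end, meaning within 1 kb of either end of the gene (100%, 95% Wilson interval over genes 67.6% to 100%). Of all protein-coding genes, 72.8% had an end peak. The Wilson interval treats a chosen list as a random draw of genes, so it is not a sampling error or a test. By the pileup of the highest end peak of each gene, CAV1 and CAVIN2 stood highest and PLVAP lowest, with MFSD2A in between. In all, 47 peaks lay in the 8 genes and 10 kb either side, 10 at gene ends, 20 inside genes and 17 in the flanks. No peak was shared by 2 of the genes.

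The RefSeq promoter table, which runs from 250 bases before to 50 bases after an annotated start, matched 6 of the 8 genes with 9 windows. CAVIN1 and CAVIN3 were not matched. All 6 of these genes had a peak within 1 kb of a start, compared with 74.0% of the 15843 protein-coding genes with a window. Each of the 9 windows lay wholly inside 1 peak, compared with 52.1% of the 22199 windows of protein-coding genes. Windows of 1 gene overlap or lie side by side, so the 9 windows are not independent. The bases before the start are printed here because these are the stretches that the peaks covered. They are written 5′ to 3′ on the gene's strand, build GRCh38.p14, in lower case with capitals for matches, on either strand, to the letters named next. These are GGGCGG, the letters of a GC box where SP1 and related factors bind, except at MFSD2A, where they are CCAAT, the letters that NF-Y binds. The CAVIN2 and PLVAP stretches held neither of these. The shorter motifs counted further on are not marked.
CAV1 first start (chr7:116524759-116525008, plus strand): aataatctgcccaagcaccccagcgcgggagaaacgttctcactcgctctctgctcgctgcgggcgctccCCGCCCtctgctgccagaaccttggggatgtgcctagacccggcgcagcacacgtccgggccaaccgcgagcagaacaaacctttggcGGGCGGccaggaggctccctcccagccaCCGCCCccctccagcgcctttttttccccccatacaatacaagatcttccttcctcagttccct
CAV1 later start (chr7:116526112-116526361, plus strand): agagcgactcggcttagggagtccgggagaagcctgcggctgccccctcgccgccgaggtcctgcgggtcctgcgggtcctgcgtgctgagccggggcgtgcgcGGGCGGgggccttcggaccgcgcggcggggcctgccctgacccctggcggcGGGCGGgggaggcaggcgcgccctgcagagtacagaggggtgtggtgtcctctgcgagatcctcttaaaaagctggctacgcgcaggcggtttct
CAV2 (chr7:116499488-116499737, plus strand): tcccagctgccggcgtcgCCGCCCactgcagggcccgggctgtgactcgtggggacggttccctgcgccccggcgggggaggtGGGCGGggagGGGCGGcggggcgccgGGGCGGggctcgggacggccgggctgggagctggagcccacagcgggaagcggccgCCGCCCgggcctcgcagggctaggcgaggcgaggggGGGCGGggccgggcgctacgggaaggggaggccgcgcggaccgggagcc
CAVIN2 (chr2:191847089-191847338, minus strand): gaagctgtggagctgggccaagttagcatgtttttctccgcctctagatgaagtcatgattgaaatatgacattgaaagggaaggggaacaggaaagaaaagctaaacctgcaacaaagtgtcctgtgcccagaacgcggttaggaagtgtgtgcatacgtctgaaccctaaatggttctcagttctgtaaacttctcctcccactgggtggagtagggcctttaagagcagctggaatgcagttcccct
EHD2 (chr19:47713172-47713421, plus strand): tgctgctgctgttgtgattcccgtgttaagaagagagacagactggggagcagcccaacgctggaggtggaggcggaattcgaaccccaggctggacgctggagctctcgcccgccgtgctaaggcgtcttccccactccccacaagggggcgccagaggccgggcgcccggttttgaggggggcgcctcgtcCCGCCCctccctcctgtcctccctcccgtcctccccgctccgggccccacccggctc
PLVAP (chr19:17377343-17377592, minus strand): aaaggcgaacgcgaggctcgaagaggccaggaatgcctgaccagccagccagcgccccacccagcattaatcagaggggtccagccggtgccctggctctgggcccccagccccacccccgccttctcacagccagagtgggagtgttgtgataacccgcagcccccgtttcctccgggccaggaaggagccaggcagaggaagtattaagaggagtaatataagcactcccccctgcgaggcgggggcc
MFSD2A (chr1:39954895-39955144, plus strand): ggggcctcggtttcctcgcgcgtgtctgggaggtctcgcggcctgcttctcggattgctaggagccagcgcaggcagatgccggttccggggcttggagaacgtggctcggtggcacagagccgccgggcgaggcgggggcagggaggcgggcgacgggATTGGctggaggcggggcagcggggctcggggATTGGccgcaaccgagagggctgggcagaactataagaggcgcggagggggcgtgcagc

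The promoters differed widely in base composition. Over the whole window of 300 bases, the first CAV2 window had 82.7% G or C and 43 CpG dinucleotides, more G or C than 98.8% of all windows. The second CAV2 window had 71.0% and 33 CpG, more G or C than 76.9%. The window of CAVIN2 stood at the other side, with 49.3% G or C and 5 CpG, and only 18.5% of all windows had less G or C. MFSD2A had 72.0% and 35 CpG, EHD2 71.0% and 30, PLVAP 65.7% and 17, and the first CAV1 window 62.3% and 19. The later CAV1 start, 1353 bases downstream of the first, had 71.0% and 36 CpG. Medians over all windows were 62.3% and 21.

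The GC box letters were found in 6 of the 9 windows, which were those of CAV1, CAV2 and EHD2, compared with 56.3% of all windows. CAV2 had 6 matches in its first window. The NF-Y letters were found in 1 window, that of MFSD2A, with 2 matches, compared with 34.7% of all windows. None of the 9 held TATAAA, the core of the TATA box, which 9.47% of all windows held. Nor did any hold TGANTCA, the letters that AP-1 binds, held by 6.15% of all windows. The short core that ETS factors bind, GGAA, was found in 8 of 9 windows and in 95.1% of all, and CACCC in 6 of 9 and in 63.4%. These shares are close to those of all windows for the common letters, and a match or its absence describes only these letters in these windows.

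**Figure D1:**
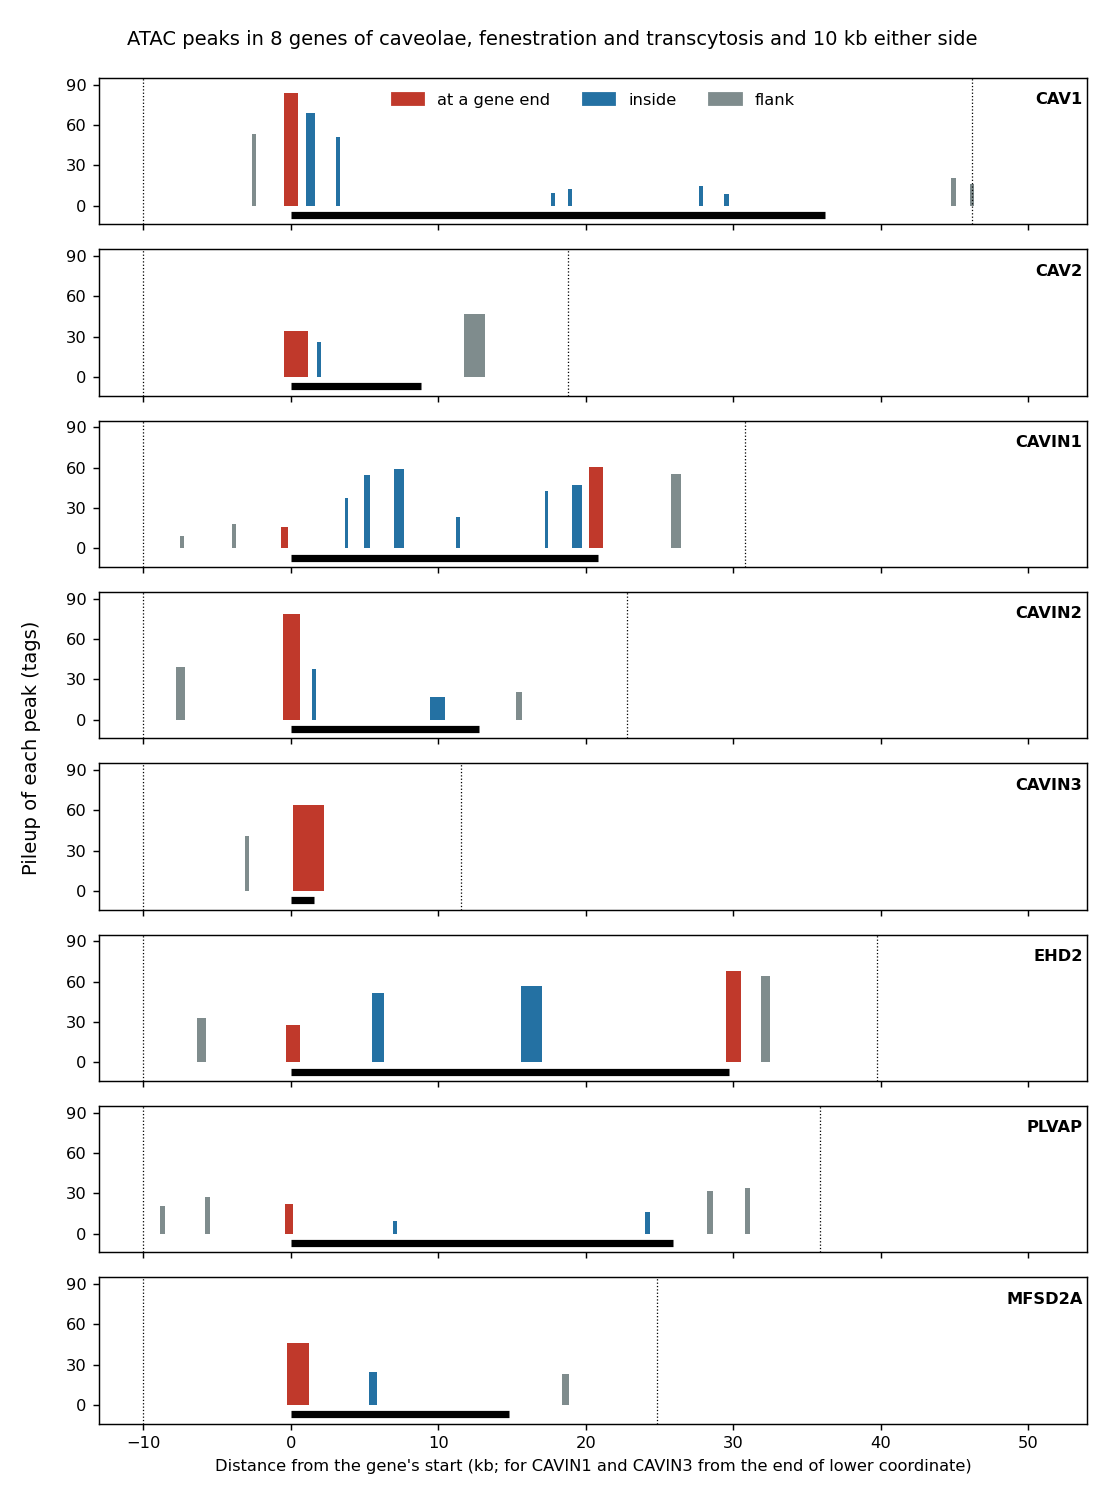
Peaks of the ATAC library at the 8 genes. The x axis gives the distance in kb from the gene's start (for CAVIN1 and CAVIN3, whose start was not taken from the tables, from the end of lower coordinate), the y axis the pileup in tags, the black line the gene and the dotted lines the limit of 10 kb. Bar width is the length of the peak, with a minimum so that short peaks stay visible. The tallest bar of CAV1, 84.0 tags, sits at its start, whereas that of EHD2, 68.2 tags, sits at its far end.

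CAV1 encodes caveolin-1, the main coat protein of caveolae. Its 36.2 kb gene and flanks held 10 peaks, the second highest number of the 8 genes. A peak of 959 bp at chr7:116524534-116525492 spanned the first start, from -475 to 483 bases around it, with 84.0 tags of pileup and 4.34-fold enrichment over its local background. The pileup of a peak is the number of extended tags over a base, averaged over the peak, and its fold is the caller's ratio of pileup to the local background of the same library. It was higher than the highest end peak of 95.5% of the 14595 protein-coding genes that had one.

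Around this start, CAV1 carried 4 peaks in a span of 5990 bp. The one at chr7:116522359-116522627 upstream had 53.0 tags, and the one at chr7:116528100-116528348 inside the gene had 51.0. The fourth, at chr7:116526022-116526620 with 69.1 tags, was classed as inside the gene because it starts 1013 bases after the first start, but it holds the whole window of the later annotated start. All 4 had a local background of 16.1 to 18.6 tags, which is high, since the median over genes with an end peak was 7.88. Their folds, from 3.04 to 4.34, were correspondingly moderate.

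The rest of CAV1 was different. Its other 4 peaks inside the gene were 200 to 341 bp long with pileups of 8.91 to 15.0 tags, and each sat on the lowest background the caller allows, 2.37 tags. For 3 of them −log10 q was under 5. Both traits are common, since 34.8% of all peaks sat on that background and 28.5% had −log10 q under 5. Beyond the far end, 2 flank peaks at 8.58 and 9.86 kb had 20.4 and 16.2 tags. Accessibility along CAV1 was thus concentrated at its 5′ side in this library.

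CAV2, the partner that assembles with caveolin-1, lies next to CAV1 with 16467 bp between the genes. It had 3 peaks. The start peak, chr7:116499305-116500931, was long (1627 bp) but reached only 34.0 tags and 3.93-fold, both under the medians over genes with an end peak (45.7 tags and 5.02). It also lay at the end of the noncoding gene CAV2-DT. A short peak of 234 bp at chr7:116501517-116501750 inside the gene had 25.7 tags.

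The strongest peak counted for CAV2 was outside the gene, at chr7:116511489-116512874, 2.95 kb beyond its far end. Its pileup was 47.1 tags, its fold 5.26 and its length 1386 bp, and no annotated gene end lay within 1 kb. This peak and the one 2.38 kb before CAV1 were the 2 peaks called between the genes. For the caveolin pair, the start of CAV1 had 84.0 tags (95% exact Poisson interval 67.0 to 104) and that of CAV2 34.0 (23.5 to 47.5). These intervals do not overlap. They treat the rounded pileup, an average over the peak, as a count at 1 position. They cover only the counting error of such a count, which is not that of the average.

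CAVIN1, without which caveolae do not form, had 11 peaks, the most of the 8 genes. Peaks lay at both ends. The peak at the end of higher coordinate, chr17:42422681-42423581, had 60.6 tags and a fold of 3.86, and the noncoding gene LOC102725238 has an end within 1 kb of it. The one at the end of lower coordinate, chr17:42401800-42402233, was weak, with 15.9 tags, a fold of 2.65 and −log10 q of 2.52.

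Inside CAVIN1, 6 peaks ran from 23.01 to 58.94 tags, so several approached the level of the stronger end. The highest, chr17:42409424-42410106, had 58.9 tags over 683 bp, and its neighbour at chr17:42407405-42407824 had 54.8. In the flank, chr17:42428206-42428914 had a similar pileup of 55.5 tags on a lower background of 6.28 tags, which gave a fold of 7.76, the highest of the 47 peaks. The other flank peaks of CAVIN1, with 9.23 and 18.1 tags, lay on the opposite side.

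CAVIN2, a cavin that binds phosphatidylserine and is abundant in endothelium, had 5 peaks and the second highest end peak. The peak at its start, chr2:191846500-191847619, had 78.8 tags, a fold of 5.28 and the highest −log10 q among the end peaks, 34.8. Thus the promoter with the lowest G or C content of the 6 matched genes had one of their strongest start peaks. The noncoding gene CAVIN2-AS1 has an end within 1 kb of it. A peak of 205 bp just downstream of the start, at chr2:191845412-191845616, had 37.3 tags but a fold of 2.43.

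The other peaks of CAVIN2 were weaker. A long peak of 1051 bp inside the gene, chr2:191836625-191837675, had 16.9 tags and −log10 q of 1.98. Upstream of the start, chr2:191854285-191854907 had 39.4 tags and a fold of 5.85, and beyond the far end chr2:191831440-191831844 had 20.6 tags.

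CAVIN3, which binds protein kinase C delta, is the shortest of the 8 genes, 1556 bp. A single peak of 2087 bp at chr11:6319093-6321179, the longest of the 47, covered 1409 of those bases and both ends could be assigned to it. Its pileup was 63.6 tags and its fold 3.55, the lowest among the highest end peaks of the 8 genes, on a local background of 17.2 tags. The noncoding gene LOC101927825 has an end there. One flank peak, chr11:6315874-6316096, had 40.6 tags and a fold of 2.65.

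EHD2, the ATPase of the caveolar neck, had 6 peaks, and its start was not the most accessible place. The peak at the start, chr19:47713112-47714056, had 27.5 tags and a fold of 5.59. At the far end, chr19:47742938-47743908 had 68.2 tags and a fold of 4.57, so the start peak reached 40.3% of the pileup at the far end. Inside the gene, chr19:47718933-47719739 had 51.5 tags and a fold of 6.47, and chr19:47729036-47730469 had 57.0 tags over 1434 bp. The noncoding gene LOC124904733 has an end within 1 kb of the latter.

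Pileup therefore increased from the start of EHD2 to its far end, as did the local background, from 4.09 to 14.1 tags. The flank peak 2.18 kb beyond the far end, chr19:47745318-47745899 with 64.2 tags, lies at an end of the neighbouring gene NOP53, a ribosome biogenesis factor. Upstream, chr19:47707067-47707668 had 32.6 tags and a fold of 7.48. Ranked by the pileup at its start alone, EHD2 stood above 18.9% of the 11724 genes with a start peak. By pileup, its best end peak stood above 84.6% of genes with an end peak. By fold the order was the other way, 62.2% for the start and 38.7% for that end peak.

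PLVAP forms the diaphragms of fenestrae and of many caveolae in vessels outside the barrier. It had 7 peaks, more than the median of similar genes, but its highest end peak had the lowest pileup among those of the 8 genes. That peak, chr19:17377222-17377734, spanned the start from -392 to 120 bases with a pileup of 21.7 tags (95% exact Poisson interval 13.8 to 33.3). Its background was also the lowest, 2.84 tags, so its fold of 5.91 was the highest among the highest end peaks of the 8 genes. The whole promoter window of PLVAP was inside it, and at 513 bp it was short.

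Most of the signal at PLVAP was outside the gene. The 4 flank peaks had 33.9 tags at chr19:17346191-17346558, 31.9 at chr19:17348698-17349135, 27.3 at chr19:17382842-17383191 and 20.3 at chr19:17385859-17386241. The last of these lies at an end of the neighbouring gene CCDC194. The peaks inside PLVAP, at 15.9 and 9.40 tags, both had −log10 q under 5.

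MFSD2A had 3 peaks. The start peak, chr1:39954857-39956404, was 1548 bp long, from -288 to 1259 bases around the start, with 45.9 tags (33.7 to 61.4) and 4.29-fold enrichment. Its pileup was close to the median of 47.0 tags over the 11724 genes with a start peak, above 47.8% of them. A peak inside the gene at chr1:39960446-39960978 had 24.8 tags. Beyond the far end, chr1:39973492-39974012 had 23.03 tags on the lowest background, with a fold of 7.12.

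The start peaks of MFSD2A and PLVAP, the pair of genes with opposite roles at the barrier, differed by 45.9 to 21.7 tags. The counting intervals, 33.7 to 61.4 and 13.8 to 33.3, did not overlap. By fold the order was the other way, 4.29 at MFSD2A and 5.91 at PLVAP. With 1 library, neither difference has a replicate check, and accessibility is not a level of RNA or protein.

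**Figure D2:**
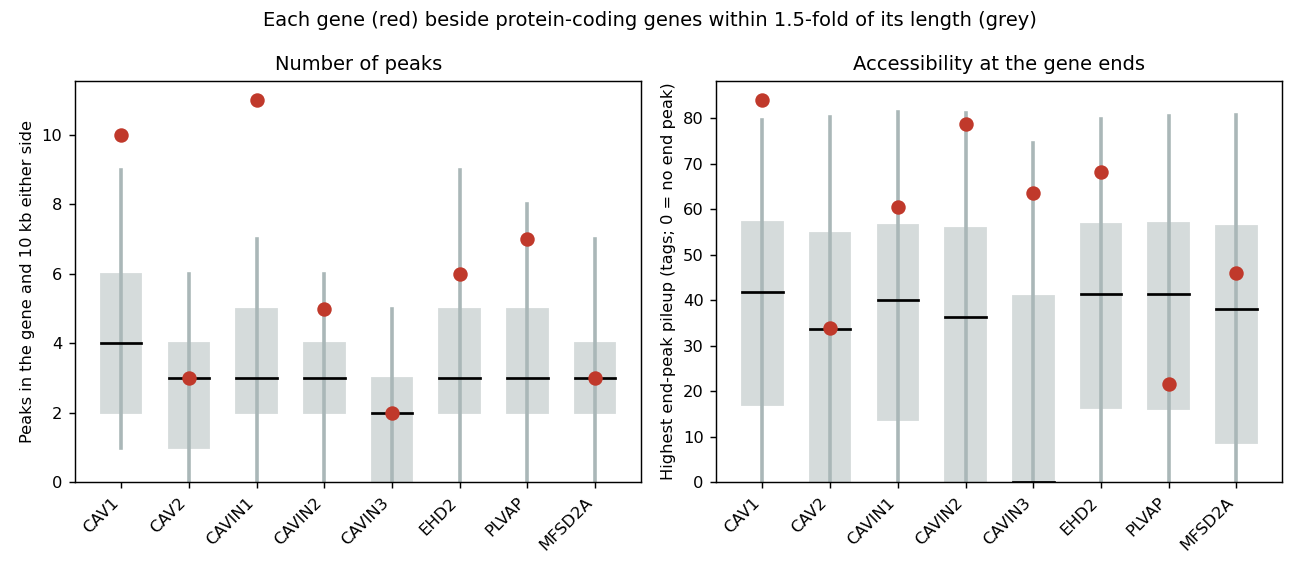
Left, the number of peaks in each gene and 10 kb either side, and right, the pileup in tags of its highest end peak, as red points. Boxes give the quartiles, black lines the median and grey lines the 5th to 95th percentile of protein-coding genes within 1.5-fold of the gene's length. CAV1 and CAVIN1 have more peaks than the 95th percentile, and PLVAP alone lies under the median on the right.

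Longer genes hold more peaks by their size, so each gene was set beside all protein-coding genes within 1.5-fold of its length. CAVIN1 had more peaks than 99.6% of 4200 such genes, whose median was 3. CAV1, with 10 peaks against a median of 4, had more than 95.9% of 4189. PLVAP with 7 peaks exceeded 87.0%, CAVIN2 with 5 exceeded 77.2% and EHD2 with 6 exceeded 76.7%, each against a median of 3. CAV2, MFSD2A and CAVIN3 had exactly the median, 3, 3 and 2 peaks. With these settings 5 of 8 genes were above the median and none was under it, where 42.8% of all protein-coding genes are above.

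Counting only peaks that overlap the gene itself, with no flank, left 29 peaks and put all 8 genes above the median, compared with 35.9% of all genes. The median for CAVIN3 was then 0, so any peak put it above. All 8 were above the median also with flanks of 5 kb, with a limit of 5 on −log10 q and without peaks at ends of other protein-coding genes, where 40.7%, 42.0% and 42.2% of all genes were. In these last 3 settings CAV2, CAVIN3 and MFSD2A kept their 3, 2 and 3 peaks, while their medians fell to 2, 1 and 2. With only peaks of a fold of at least 4, 5 of 8 were above, where 38.2% of all genes were, and CAV2 (1 peak against a median of 2) and CAVIN3 (0 against 1) were under. At that limit CAVIN1 fell from 11 peaks to 3 and CAV1 from 10 to 4, whereas EHD2 kept its 6, each against a median of 2. Set beside all protein-coding genes whatever their length, 5 were above and CAVIN3 was under, with 2 peaks against 3. Peaks covered a median of 10.6% of the gene and flanks over the 8 genes, and 4.29% over all protein-coding genes of any length. These 2 medians are not matched for length. Against genes of similar length, the bases under peaks exceeded between 57.6% of the set, at PLVAP, and 94.4%, at CAVIN1, with MFSD2A at 62.1%. PLVAP had the lowest coverage, 5.75%, and CAVIN1 the highest, 12.4%.

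For the highest end peak, 7 of 8 genes were above the median pileup of genes of similar length, compared with 49.0% of all genes, with genes that had no end peak set to 0. CAV1 exceeded 96.8% of its set, CAVIN2 93.8%, CAVIN3 90.7%, EHD2 87.6% and CAVIN1 80.0%. MFSD2A exceeded 60.4% and CAV2 50.2%, which is at the middle. PLVAP exceeded 29.3%. The median of genes as short as CAVIN3 was 0 for both pileup and fold, so any end peak put CAVIN3 above it. Among genes with an end peak alone, 5 of 8 were above the median pileup of similar length, where 49.8% of such genes were. CAV2 (34.0 against 46.8 tags), MFSD2A (45.9 against 47.3) and PLVAP (21.7 against 47.6) were then under. By the fold of the same peaks only 3 of 8 were above the median of their sets, where 49.0% of all genes are.

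**Figure D3:**
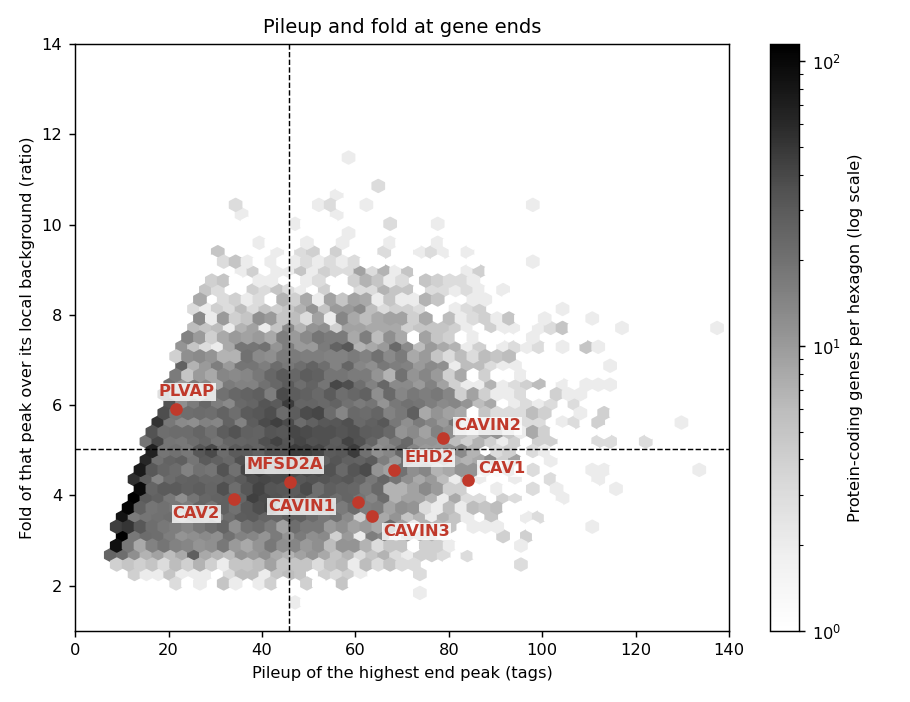
Highest end peak of each protein-coding gene that had one, by pileup in tags (x axis) and fold over local background (y axis). Shading gives the number of genes per hexagon on a log scale, dashed lines the medians of 45.7 tags and 5.02-fold, and red points the 8 genes. CAV1, CAVIN1, CAVIN3, EHD2 and MFSD2A lie to the right of the vertical line and under the horizontal one.

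Local background was computed from pileup and fold, so the relation between these values is partly arithmetic. Their relation over all genes is not given here. The background of the highest end peak was above the gene median of 7.88 tags for 7 of the 8 genes, from 7.92 at CAV2 to 18.6 at CAV1, with PLVAP the exception. Over the 8 genes the median was 14.1 tags of background, 62.1 tags of pileup and 4.32-fold. Pileup was above the gene median for 6 of 8 genes and fold was under it for 6 of 8. The part of the background in the order by fold was not tested.

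In the order of highest end peaks, CAV1, CAVIN2, EHD2, CAVIN3, CAVIN1, MFSD2A, CAV2 and PLVAP, no gene was apart from the next by its counting interval. The interval of PLVAP, 13.8 to 33.3 tags, lay under those of all the others except CAV2. That of CAV1, 67.0 to 104, lay above those of MFSD2A, CAV2 and PLVAP.

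A feature that the choice of genes did not use was the presence of noncoding genes at the same peaks. The highest end peak of CAV2, CAVIN1, CAVIN2 and CAVIN3 also lay within 1 kb of an end of a long noncoding RNA gene, 4 of 8 genes (95% Wilson interval 21.5% to 78.5%), compared with 18.3% of the 14595 genes with an end peak. None of the 8 shared its highest end peak with an end of another protein-coding gene (upper Wilson limit 32.4%), compared with 28.8% of genes. This feature was chosen after the peaks had been seen. The Wilson limits treat the chosen genes as a random draw and are no test against the shares over all genes. ATAC carries no strand, so a peak at such a place cannot be assigned to either gene.

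Peaks of the 3 positions differed in shape. Those at gene ends were longest and highest, with medians of 965 bp and 53.3 tags. Inside the genes the medians were 312 bp and 31.5 tags, and in the flanks 383 bp and 31.9 tags. Flank peaks had the highest median fold, 4.77, compared with 4.32 at ends and 3.07 inside, and their median background was 4.88 tags, compared with 12.02 and 8.83. Over all 106415 peaks the medians were 452 bp, 21.6 tags and 4.49-fold. These were not split by position, so whether the contrast is particular to these genes was not tested. A fold of at least 4 was reached by 12 of 17 flank peaks, 6 of 10 end peaks and 5 of 20 inside peaks. With such peaks alone, 5 of the 8 genes kept an end peak, compared with 56.0% of all genes, and CAV2, CAVIN1 and CAVIN3 did not.

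The limit of 10 kb mattered for the number of peaks. Flanks of 20 kb raised the sum over the 8 genes by 24 to 71, or 66 distinct peaks, since some then counted for more than 1 gene. CAV2 went from 3 to 7 and PLVAP from 7 to 13. The outermost peak counted was at 9.86 kb from CAV1 with 16.2 tags, and the nearest not counted was at 10.2 kb from CAVIN2 with 38.2 tags and a fold of 5.44. For CAVIN3 the nearest peak not counted was at 20.0 kb. Just beyond the limit of CAVIN1, at 13.2 kb, lay a peak of 78.9 tags, higher than any counted for that gene.

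**Figure D4:**
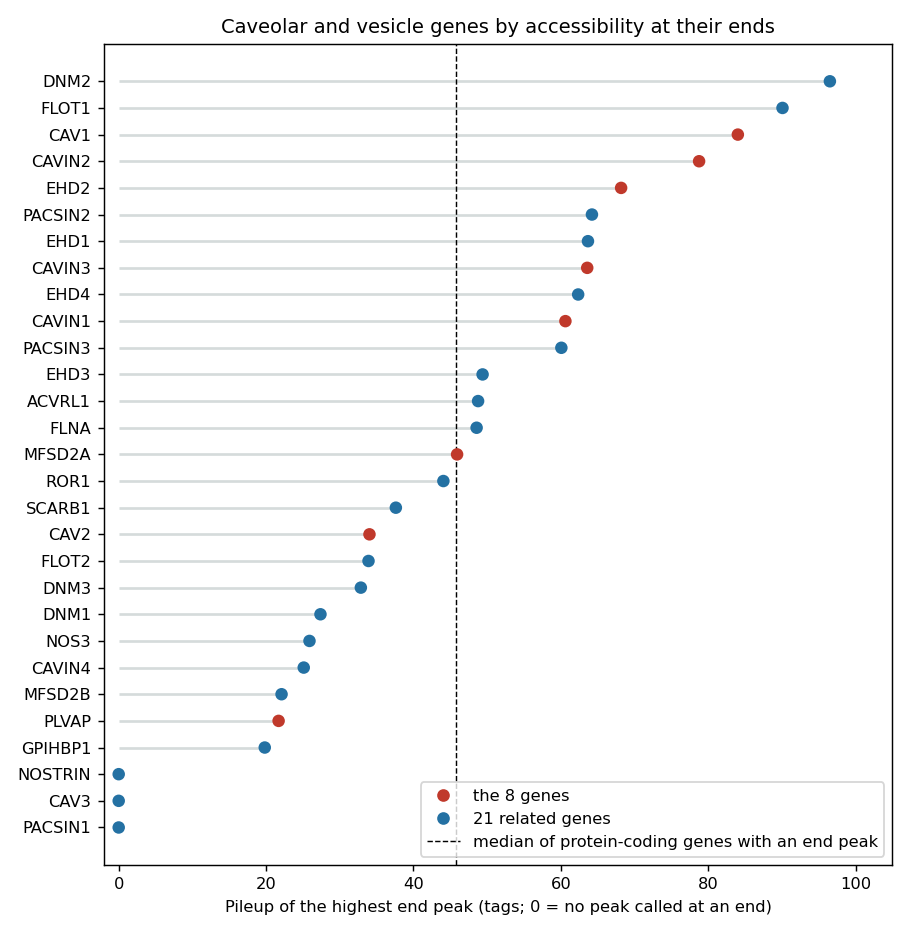
Pileup in tags of the highest end peak of the 8 genes (red) and of 21 related genes (blue), with genes without an end peak at 0. The dashed line is the median over all protein-coding genes that had an end peak, 45.7 tags. CAV1 stands after DNM2 and FLOT1, and PLVAP is near the low end.

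The wider set of 21 genes of caveolae and vesicle transport was counted in the same way, and 18 had an end peak, beside the 72.8% of all protein-coding genes. Those without one were CAV3, the muscle caveolin, PACSIN1, a membrane-bending protein best known from neurons, and NOSTRIN, which binds endothelial nitric oxide synthase. CAV3 had 2 peaks in the gene and flanks, PACSIN1 7 and NOSTRIN 4. By peak number, 18 of the 21 were above the median of genes of similar length, where 42.8% of all protein-coding genes are. Of the 8 genes, 5 were above it and 3 equal to it. The highest end peaks were at DNM2, the widely expressed dynamin that cuts vesicles from the membrane, with 96.5 tags, at FLOT1, a flotillin of membrane microdomains, with 90.1, and at PACSIN2, a curvature protein of the caveolar neck, with 64.2.

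Close relatives of the 8 genes are given for comparison. CAVIN4, the muscle cavin, had an end peak of 25.1 tags, under each of the 3 other cavins. EHD1 and EHD4 had 63.7 and 62.4 tags and EHD3 49.4, around or under the 68.2 at the far end of EHD2 and above the 27.5 at its start. MFSD2B, a sphingolipid transporter related to MFSD2A, had 22.1 tags. NOS3, the endothelial nitric oxide synthase that caveolin-1 binds, had 9 peaks and an end peak of 25.9 tags. Over the 18 genes the median was 46.3 tags and 3.91-fold, close to the 45.7 tags of all genes with an end peak and under their 5.02-fold.

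The label of the cells was checked against marker genes. All 8 endothelial markers (PECAM1, CDH5, KDR, TEK, TIE1, ERG, VWF and CLDN5) had an end peak, with pileups from 11.0 tags at ERG to 62.7 at CDH5. An end peak was also found for 9 of 13 markers of other cell types, 3 of 4 for mural cells, 1 of 3 for astrocytes, 3 of 3 for blood cells and 2 of 3 for epithelium, up to 77.4 tags at KRT8. No peak was called in KCNJ8 or AQP4 or their flanks. End peaks alone therefore did not separate endothelial markers from the others, and the identity of the cells rests on the label. The list was called from 22188172 tags, and the lowest pileup called was 8.0 tags, so a place without a peak was not detectable as open at this depth.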

How the data were processed

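The ATAC library was deposited as a broad peak list, which the authors made with MACS 2.2.7.1 from the single library with no control (shift -100, extension 200 bp, q limits 0.05 for strong and 0.1 for broad regions), per the file headers. The header gives 31532245 tags, 22188172 after keeping 1 per position, single-end mode, and an effective genome size of 1870000000 bp, the caller's mouse preset. This size sets the lowest background (2.37 tags) and so the fold of peaks at that level, and it bears on q. At that level were 6 of the 47 peaks and 34.8% of all peaks. Deposited values used were peak position, pileup signal, fold enrichment ratio and the −log10 p-value and q-value. In broad mode the caller averages these over the peak. Local background was computed as (pileup + 1) divided by the fold, minus 1.

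GRCh38 and mm10 are named in the submitters' processing notes, without a role. With the GRCh38.p14 RefSeq tables, 64.3% of 22199 annotated starts had a peak within 100 bp, and at most 5.48% did after offsets of 2000 to 50000 bp. A peak counted with an overlap of at least 1 bp. Genes of similar length were within 1.5-fold. Named genes were all 8 members, the related genes without an end peak and the 3 with the highest, and neighbours at a counted peak, while paralogues were named after their values were seen. Members and lists were chosen with earlier results of these data known. Sequences are RefSeq's. Placement was tested on simulated data. Python 3.11.15, pandas 2.3.3, NumPy 2.4.6 and SciPy 1.17.1 were used. The RNA tables were not used here.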

Additional observations from a re-analysis of the deposited data

How the results depend on the processing

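Of 38 alternative values, 28 stayed within 1.5-fold of the reported one and 10 did not. The 47 peaks became 71 with flanks of 20 kb, 29 with no flank and 23 at a fold of at least 4. The 5 genes above the median peak number of genes of similar length became 8 with flanks of 5 kb, 8 with no flank, 8 with −log10 q of at least 5 and 8 without peaks at ends of other protein-coding genes. At a fold of at least 4, genes with an end peak became 5 of 8, and related genes 11 of 21 in place of 18. By fold in place of pileup, 3 genes and not 7 were above the median of similar length. The other alternatives were windows of 500 and 2500 bp, an overlap of 200 bp, other length limits, summed length of end peaks, all protein-coding genes as the comparison and only genes with an end peak. Against all protein-coding genes, 6 genes in place of 7 were above the median end pileup and 5 stayed above the median peak number. Against only genes with an end peak, 5 in place of 7 were above the median end pileup. With flanks of 20 kb, 6 in place of 5 were above the median peak number. No paired analysis was possible because only 1 ATAC library was used, in which nothing can be paired. With 1 ATAC library, leaving out a replicate was not possible.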
